A study of Mus musculus with 4 samples.

Results

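The 135 genes described here were expressed in the retina of wild-type mice and at least doubled in the retina of *rd7* mice, the *Nr2e3* mutant. They were chosen from FPKM values (fragments scaled to transcript length and to all mapped fragments) of 4 RNA-seq libraries. A gene was taken where both wild-type libraries had an FPKM of at least 1 and the smaller *rd7* value was at least 2 times the larger wild-type value. Of 22095 listed loci, 21833 had an estimate marked OK by the authors' software in all 4 libraries and 12388 of these met the wild-type minimum. In 148 of the 12388 genes, or 1.19%, *rd7* was at least doubled. The reverse rule, with *rd7* at least halved, held for 61 of the same genes, or 0.492%. Its minimum also fell on wild-type, so it is not an exact mirror, and both counts come from FPKM without further scaling. *Nr2e3* was left out, as were 12 others, namely cone and retinoid genes and genes whose symbols start with Fabp or Kcn. The 12 were *Cngb3*, *Fabp7*, *Gnat2*, *Gnb3*, *Kcnh5*, *Kcnh6*, *Kcnma1*, *Kcnq1ot1*, *Opn1sw*, *Pde6c*, *Pde6h* and *Rdh10*. This gave the 135 genes described here. Because these genes were selected on the *rd7* and wild-type values themselves, their differences are given as a description, without a test.

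Each of the 4 libraries came from 8 retinas, pooled from 2 female and 2 male mice at 3 weeks of age. The 2 wild-type libraries were from C57BL/6J mice and the 2 *rd7* libraries from mice of the *rd7* strain. The mutation and any other difference between these strains cannot be told apart. Values are always listed with replicate 1 before replicate 2, and the spread between them is a spread between pools of animals. Whole retina was sequenced, so more cells of a type and more RNA per cell cannot be told apart. Depth was put only roughly, from small FPKM steps within a chosen window, at 3.49e+07 to 3.56e+07 reads per library. On that estimate the lowest value of any of the 135 genes corresponded to about 41.5 reads.

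*Nr2e3* encodes a nuclear receptor of the photoreceptor lineage, which in developing rods represses cone genes and acts with the transcription factors NRL and CRX on rod genes. In the *rd7* retina the receptor is lost, and rods take on a mixed rod and cone character, with whorls and rosettes in the outer nuclear layer. The mutated gene was itself read at higher levels in the mutant. *Nr2e3* had 2493 and 1589 FPKM in the *rd7* libraries and 385 and 394 FPKM in the wild-type libraries, and these reads do not show whether the transcript is intact.

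The size of the increase was uneven across the 135 genes. The ratio used from here on is the smaller *rd7* FPKM over the larger wild-type FPKM. It lay between 2 and 2.5 in 84 genes, between 2.5 and 3 in 17, between 3 and 5 in 19, between 5 and 10 in 11, and at 10 or more in 4. The threshold cut through a dense part of the distribution, since 34 of the 135 genes (25.2%) had a ratio under 2.1, and a further 36 expressed genes lay between 1.9 and 2. Just inside was *Abhd2*, an abhydrolase, with 5.42 and 5.26 FPKM in *rd7* and 2.28 and 2.63 FPKM in wild-type (ratio 2.003). *Acsl1*, a long-chain acyl-CoA synthetase, had 48.8 and 47.7 FPKM against 23.8 and 23.4 FPKM (ratio 2.003), and *Hs2st1*, a heparan sulfate sulfotransferase, had 24.0 and 23.6 FPKM against 11.2 and 11.8 FPKM (ratio 2.002). The nearest genes outside missed a doubling narrowly. *Rest*, a repressor of neuronal genes, had 4.39 and 4.45 FPKM against 2.19 and 2.20 FPKM. *Acly*, which makes cytosolic acetyl-CoA, had 117 and 115 FPKM against 57.1 and 58.0 FPKM, and *Tmem132d* had 5.82 and 5.85 FPKM against 2.85 and 2.93 FPKM, with a ratio of 1.99 in all 3. Ratios on both sides of the threshold were thus nearly equal.

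The genes at the edge also depend on how libraries are scaled. The median log2 difference of all 12655 genes tested below was 0.15, and dividing each library by its median-ratio size factor removed that shift. Of the 135 genes, 73 still met the rule after this scaling. All 34 genes with a ratio of at least 3 did so, against 39 of the 101 genes with a ratio under 3. The 34 are therefore described in most detail.

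**Figure D1:**
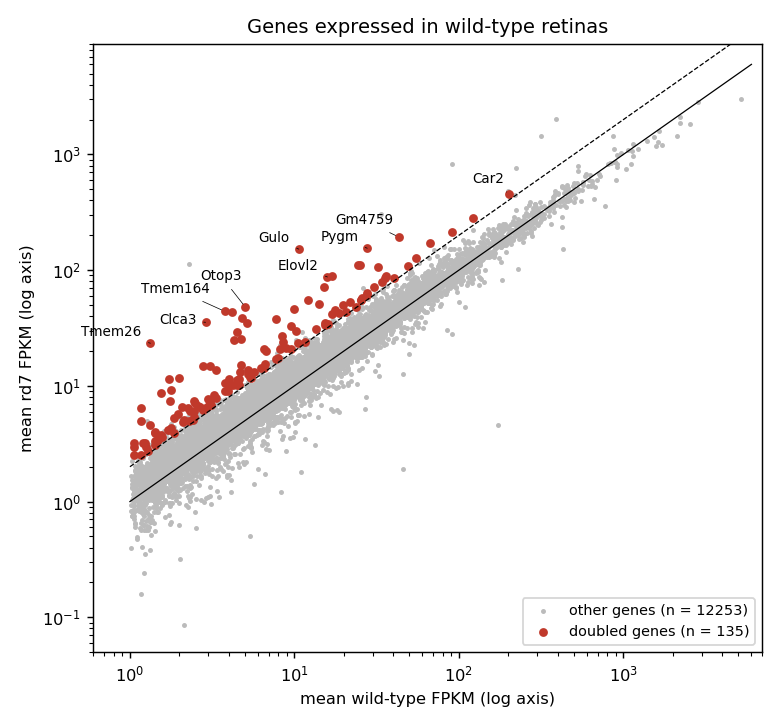
Mean *rd7* FPKM against mean wild-type FPKM of the expressed genes, both axes logarithmic, with the 135 doubled genes in red and other genes with values on the axes in grey. The solid line marks equal values and the dashed line a doubling, and the doubled genes run from about 1 FPKM in wild-type up to *Car2* at 203 FPKM. Grey points above the dashed line are genes left out by name or whose means, but not their separate libraries, differ by 2 times.

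The 4 highest ratios belonged to *Tmem26*, *Gulo*, *Tmem164* and *Clca3*. *Tmem26*, a transmembrane protein whose function is not established, had 25.2 and 21.5 FPKM in *rd7* and 1.27 and 1.39 FPKM in wild-type, a ratio of 15.5. *Gulo*, which carries out the last step of vitamin C synthesis in the mouse, had 165 and 139 FPKM in *rd7* and 11.001 and 10.3 FPKM in wild-type, a ratio of 12.6. *Tmem164*, a transmembrane protein, had 45.3 and 42.8 FPKM against 3.63 and 3.92 FPKM, a ratio of 10.9. In each of these genes both *rd7* values were more than 10 times both wild-type values, and *Gulo* alone among them reached over 100 FPKM. The means were 23.4 ± 2.59 (SD, n = 2) FPKM in *rd7* and 1.33 ± 0.0838 (SD, n = 2) FPKM in wild-type for *Tmem26*, and 152 ± 18.1 (SD, n = 2) and 10.6 ± 0.525 (SD, n = 2) FPKM for *Gulo*.

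Stretches upstream of these genes were read from the mm9 genome assembly (NCBIM37), as the 250 bases before the start of the deposited locus on its strand. The windows were searched on both strands for TAATCC, the core of CRX sites, and for short cores that other factors favour, AAGTCA for NR2E3, TGCTGA for NRL and AGGTCA for nuclear receptors more widely. None of these motifs contains another. Windows of 132 of the 135 genes could be placed. TAATCC was in 9 of them (6.82%, against 5.50% of 12005 expressed genes), AAGTCA in 5 (3.79%, against 8.77%), TGCTGA in 15 (11.4%, against 11.7%) and AGGTCA in 12 (9.09%, against 9.73%). No motif was carried by most of the genes, and a match to 6 letters is a description and not a binding site. Windows of 19 of the 20 genes with the highest ratios were looked at one by one (the other is not used here), and the 3 below held TAATCC (read as GGATTA on the printed strand) or AAGTCA, and they are shown because they belong to the most strongly raised genes. The match is in capitals and the letters run 5′ to 3′ towards the gene. The first is at chr14:66628048-66628297 on the minus strand, the second at chr11:115195798-115196047 and the third at chr17:49071657-49071906, both on the plus strand.
Gulo: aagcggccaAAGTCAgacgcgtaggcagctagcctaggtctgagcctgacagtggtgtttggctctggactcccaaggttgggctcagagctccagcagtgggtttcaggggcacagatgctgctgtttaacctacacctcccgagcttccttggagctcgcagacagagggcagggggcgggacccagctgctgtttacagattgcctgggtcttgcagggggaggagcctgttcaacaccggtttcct
Otop3: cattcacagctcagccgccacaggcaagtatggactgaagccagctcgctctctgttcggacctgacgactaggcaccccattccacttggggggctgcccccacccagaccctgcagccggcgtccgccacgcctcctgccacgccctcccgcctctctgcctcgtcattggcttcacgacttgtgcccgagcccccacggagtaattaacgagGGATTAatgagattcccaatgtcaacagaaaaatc
Lrfn2: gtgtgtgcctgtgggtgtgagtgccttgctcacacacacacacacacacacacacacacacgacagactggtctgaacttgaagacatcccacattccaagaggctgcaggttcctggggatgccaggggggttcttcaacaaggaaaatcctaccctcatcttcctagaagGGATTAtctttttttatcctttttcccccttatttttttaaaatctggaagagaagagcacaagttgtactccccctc

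**Figure D2:**
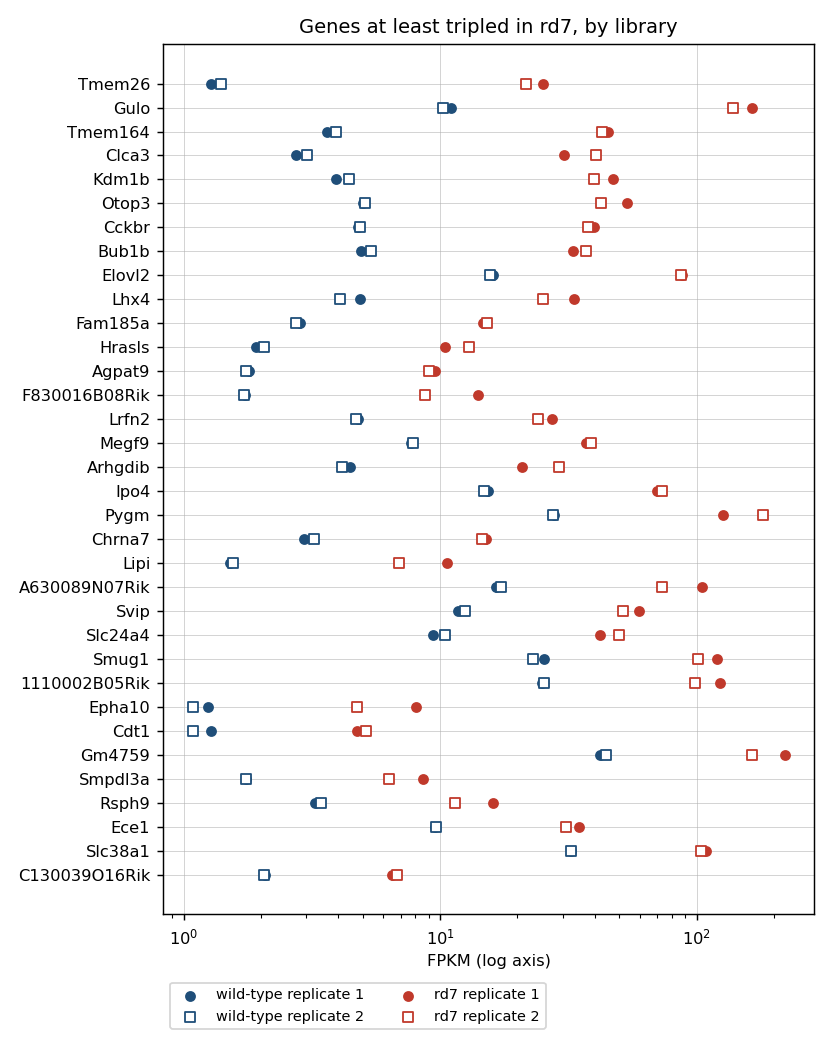
FPKM on a logarithmic axis in each of the 4 libraries for the 34 genes with a ratio of at least 3, ordered by that ratio, with wild-type in blue and *rd7* in red, filled circles for replicate 1 and open squares for replicate 2. The gap between the colours narrows from *Tmem26* (ratio 15.5) to *C130039O16Rik* (ratio 3.14), and the red symbols of *Epha10*, *F830016B08Rik*, *Lipi* and *A630089N07Rik* lie furthest apart relative to their level.

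The 135 genes were sorted into 10 groups by what their products are known to do, with an 11th group for genes given no function here. The median ratio was highest for DNA replication, repair and cell division, at 3.74 over 5 genes, and next for ion channels, exchangers and carriers, at 2.55 over 10 genes. It was 2.43 for the 24 genes given no function and lay between 2.13 and 2.26 in the other 8 groups. Since every gene had to reach 2, these medians describe only how far above the threshold the groups reached.

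**Figure D3:**
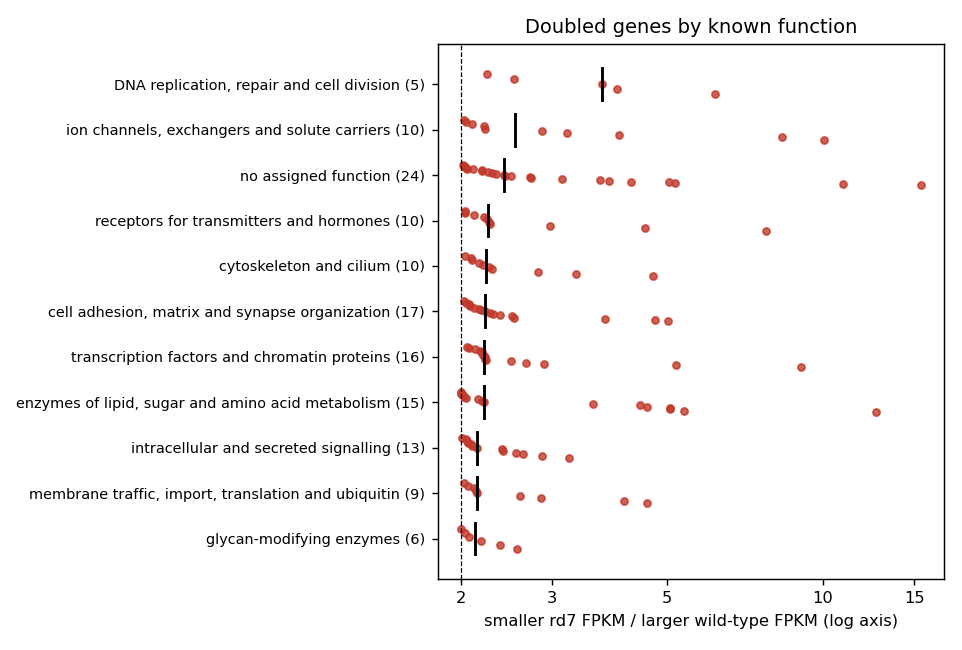
Ratio of the smaller *rd7* to the larger wild-type FPKM, on a logarithmic axis, for each doubled gene (points) in 11 groups by known function, with the number of genes in brackets, the group median as a black bar and the threshold of 2 as a dashed line. The median runs from 2.13 in glycan-modifying enzymes to 3.74 in replication, repair and division.

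Transcription factors and chromatin proteins numbered 16, with a median ratio of 2.22. The highest was *Kdm1b*, a demethylase of histone H3 lysine 4 known from the setting of imprints in oocytes, with 47.2 and 39.9 FPKM in *rd7* and 3.91 and 4.41 FPKM in wild-type, a ratio of 9.06. *Lhx4*, a LIM homeobox factor of developing photoreceptors and bipolar cells, had 33.3 and 25.2 FPKM against 4.85 and 4.07 FPKM (ratio 5.2002). These 2 stood apart from the other 14, whose ratios ran from 2.06 to 2.90. *Bach2*, a leucine zipper repressor, had 3.16 and 3.27 FPKM against 1.09 and 1.03 FPKM, and *Klf3*, a zinc finger repressor, had 6.52 and 6.29 FPKM against 2.14 and 2.35 FPKM. *Prdm1* encodes Blimp1, which favours the photoreceptor over the bipolar fate in newborn retinal cells, and *Tet1* encodes an enzyme that oxidizes 5-methylcytosine. The group was completed by the zinc finger genes *Zkscan1*, *Zfp488*, *Zfp277* and *Zfp804b*, the forkhead gene *Foxp4*, the nuclear receptor corepressor *Hr*, the histone gene *Hist3h2a*, the arginine methyltransferase *Prmt8*, the remodeller *Chd7* and the protease *Tasp1*. *Zfp488* reached the highest level of the group, at 191 and 153 FPKM against 64.5 and 68.6 FPKM.

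Relatives of these genes, gathered in lists, were compared between genotypes with limma (two-sided, Benjamini-Hochberg adjustment over 12655 genes, FDR of 5%), which called 37.6% of all genes tested higher and 8.8% lower in *rd7*. Since the doubled genes were set aside, these counts rest on genes that the rule did not choose, and each is to be read against those shares. The comparison was repeated under 3 other scalings, by median ratio, by quantile normalization and by correcting each library for exonic GC content and length. These called 19.7%, 18.6% and 12.4% of all genes higher and 19.6%, 19.0% and 15.0% lower, the shares against which their counts are to be read, and counts under them are given in this order. The last covers only genes with an annotation, 12258 of 12655, so that some lists have fewer genes in it (13 of the 18 replication genes). Among 18 other histone and DNA demethylases and methyltransferases, 5 were called higher and 1 lower, but 3, 3 and 1 higher and 1, 2 and 6 lower under the other scalings, and the median log2 difference of 0.08 became -0.07 under median-ratio scaling. *Kdm1a*, the close relative of *Kdm1b*, was not called. *Jmjd1c*, a JmjC-domain protein, was the furthest raised, at 34.7 and 30.2 FPKM against 15.2 and 15.4 FPKM (log2 difference 1.08, standard error 0.077, adjusted p = 0.0008, limma). *Tet3*, a relative of *Tet1*, fell by 0.21 in log2 (limma, adjusted p = 0.045). Of 11 other LIM homeobox and LIM-only genes 4 were called higher, none of which was called higher under any other scaling, and *Lmo1* fell by 0.43 (adjusted p = 0.015, limma). *Lhx3*, the closest relative of *Lhx4*, was not called.

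DNA replication, repair and cell division held 5 genes. *Bub1b*, the mitotic checkpoint kinase BubR1, had 33.0 and 37.0 FPKM in *rd7* and 4.92 and 5.34 FPKM in wild-type, a ratio of 6.18. *Smug1*, a uracil DNA glycosylase of base excision repair, had 121 and 102 FPKM against 25.4 and 23.1 FPKM (ratio 3.999). *Cdt1*, which loads the replicative helicase at origins, had 4.75 and 5.11 FPKM against 1.27 and 1.08 FPKM (ratio 3.74). The 2 remaining genes sat closer to the threshold. *Pola1*, the catalytic subunit of DNA polymerase alpha, had 4.16 and 3.80 FPKM against 1.35 and 1.499 FPKM (ratio 2.53). *Ccne2*, cyclin E2 of the G1 to S transition, had 4.35 and 6.15 FPKM against 1.77 and 1.93 FPKM (ratio 2.25), with the *rd7* pools further apart than in the other 4 genes.

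Other genes of the same processes were compared too. Of 18 other replication genes 5 were called higher and none lower by limma (*Mcm6*, *Orc3l*, *Orc4l*, *Orc5l* and *Pcna*), with a median log2 difference of 0.14, while under the other scalings 1, 1 and 0 were called higher and 1, 3 and 0 lower, and the median was -0.01 under median-ratio scaling. The 5 were 27.8% of these genes, below the 37.6% of all genes called higher. *Pcna*, the sliding clamp, had 50.1 and 51.5 FPKM against 42.2 and 44.1 FPKM. Of 4 other mitotic genes *Plk1*, a mitotic kinase, was called higher, at 5.81 and 5.196 FPKM against 2.74 and 2.73 FPKM (log2 difference 0.98, standard error 0.089, adjusted p = 0.0013, limma), and it stayed called under median-ratio, quantile and GC and length corrected values. Of 16 genes on that list 5 passed the filter on low values, so most markers of dividing cells were too low to compare.

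Enzymes of lipid, sugar and amino acid metabolism numbered 15, with a median ratio of 2.22, and 7 of them had a ratio of at least 3. After *Gulo* came *Elovl2*, which elongates very long polyunsaturated fatty acids, with 87.5 and 87.0 FPKM in *rd7* and 16.1 and 15.6 FPKM in wild-type, a ratio of 5.39. *Hrasls*, a phospholipase and acyltransferase, had 10.4 and 12.9 FPKM against 1.901 and 2.06 FPKM (ratio 5.06). *Agpat9*, an acyltransferase of glycerol 3-phosphate, had 9.51 and 9.05 FPKM against 1.79 and 1.75 FPKM (ratio 5.06). The pools of each genotype agreed closely in *Elovl2* and *Agpat9*, less so in *Hrasls*. *Pygm*, the muscle form of glycogen phosphorylase, had 127 and 182 FPKM against 27.9 and 27.5 FPKM (ratio 4.57), with *rd7* replicate 2 well above replicate 1. *Lipi*, a lipase (4.44), and *Smpdl3a*, a relative of acid sphingomyelinase (3.60), were the others with a ratio over 3. The remaining 8 had ratios from 2.003 to 2.22 and included the most abundant gene of all 135, *Car2*, a carbonic anhydrase strong in Müller cells, at 453 and 455 FPKM against 202 and 204 FPKM. *Glo1*, glyoxalase 1, was the second most abundant, at 272 and 291 FPKM against 122 and 123 FPKM. The others were *Pdha1* of pyruvate dehydrogenase, the ceramide synthase *Lass6*, the branched-chain transaminase *Bcat1*, the biotin ligase *Hlcs*, *Abhd2* and *Acsl1*.

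Genes of fatty acid, glycogen and ascorbate pathways next to these enzymes were compared in turn. Of 12 other elongases and desaturases 8 were called higher and none lower, against 5, 3 and 2 higher and 1, 1 and 0 lower under the other scalings. *Fads2*, the delta-6 desaturase, was at 35.6 and 32.3 FPKM against 19.8 and 20.6 FPKM (log2 difference 0.74, standard error 0.065, adjusted p = 0.0012, limma) and was called under each of the 3 other scalings, while *Elovl4*, *Elovl6* and *Fads1* were called in none of the 3. Of 13 other glycogen genes 6 were called higher, against 3, 2 and 0 higher and 1, 0 and 0 lower under the other scalings. *Pygb* and *Pygl*, the brain and liver phosphorylases, had log2 differences of 0.25 and 0.44. Of 5 other ascorbate genes 2 were called higher, *Slc23a2*, a vitamin C transporter, at 30.8 and 30.4 FPKM against 20.3 and 21.1 FPKM (adjusted p = 0.0013, limma), and *Akr1a4*, which acts earlier in ascorbate synthesis, at 176 and 170.0 FPKM against 149 and 149 FPKM (adjusted p = 0.015, limma). *Slc23a2* kept its call under all 3 scalings and *Akr1a4* under none.

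Ion channels, exchangers and solute carriers numbered 10, with a median ratio of 2.55. *Clca3*, a calcium-activated chloride channel regulator best known from mucous cells, had 30.3 and 40.6 FPKM in *rd7* and 2.74 and 3.02 FPKM in wild-type, a ratio of 10.02. *Otop3*, a proton channel of the otopetrin family, had 53.7 and 42.3 FPKM against 4.98 and 5.07 FPKM (ratio 8.34), and its upstream window is the second of those printed above. *Slc24a4*, a potassium-dependent sodium-calcium exchanger, had 42.2 and 49.7 FPKM against 9.32 and 10.5 FPKM (ratio 4.03). *Slc38a1*, a glutamine transporter, had 109 and 104 FPKM against 32.3 and 32.5 FPKM (ratio 3.20). *Clca3* and *Otop3* were lifted from about 3 and 5 FPKM to over 30 FPKM, while the 2 carriers started higher. *Orai1*, the pore of store-operated calcium entry (2.87), followed, and the bicarbonate transporter *Slc4a10*, the mitochondrial folate carrier *Slc25a32*, the volume-regulated anion channel subunit *Lrrc8b*, the sodium-calcium exchanger *Slc8a3* and the glutamate transporter *Slc1a2* had ratios from 2.03 to 2.22.

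Among 11 other store-operated entry and sodium-calcium exchange genes 3 were called higher and 1 lower, and under the other scalings 3 higher in each and 2, 2 and 1 lower. The 3 were 27.3% of these genes, below the 37.6% of all genes called higher in the first comparison. *Slc8a1* had a log2 difference of 0.78 (standard error 0.077, adjusted p = 0.0016, limma), *Slc24a2*, the exchanger of cones, 0.61 (standard error 0.072, adjusted p = 0.0025, limma) and *Slc24a3* 0.38. The rod exchanger *Slc24a1* went the other way, from 418 and 428 FPKM in wild-type to 225 and 251 FPKM in *rd7* (fell by 0.83 in log2, limma, adjusted p = 0.00097). These 4 calls were the same under median-ratio, quantile and GC and length corrected values.

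Receptors for transmitters and hormones numbered 10, with a median ratio of 2.26. *Cckbr*, the cholecystokinin B receptor, had 39.9 and 37.7 FPKM in *rd7* and 4.78 and 4.86 FPKM in wild-type, a ratio of 7.75, with both genotypes narrow in their spread. *Chrna7*, the alpha 7 nicotinic acetylcholine receptor subunit, had 15.04 and 14.5 FPKM against 2.93 and 3.20 FPKM (ratio 4.53). *Adrb1*, the beta 1 adrenergic receptor, had 28.1 and 25.5 FPKM against 8.21 and 8.57 FPKM (ratio 2.97). The ratios of the others were lower. *Htr3a*, a serotonin-gated channel subunit, had 3.03 and 2.87 FPKM against 1.26 and 1.2498 FPKM. *Neto1*, an auxiliary subunit of kainate receptors, *Glra3*, a glycine receptor subunit, *Gabrr3*, a GABA receptor subunit, *Chrm2*, a muscarinic receptor, the orphan receptor *Gpr135* and *Lgr5*, an R-spondin receptor, had ratios from 2.04 to 2.27.

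Other nicotinic subunits were compared beside *Chrna7*. Of these 8 subunits tested 6 were called higher and none lower, with a median log2 difference of 0.48, and 4, 5 and 4 higher and none lower under the other scalings. *Chrna5* was the furthest raised, at 7.14 and 6.93 FPKM against 0.921 and 1.13 FPKM (log2 difference 2.67, standard error 0.12, adjusted p = 0.00022, limma), and it had missed the list of doubled genes only because 1 wild-type value was under 1 FPKM. *Chrnb4* had 2.76 and 2.79 FPKM against 1.53 and 1.32 FPKM (adjusted p = 0.0034, limma), *Chrna3* 4.21 and 3.53 FPKM against 2.19 and 2.52 FPKM (adjusted p = 0.0082, limma) and *Chrnb2* 18.9 and 17.5 FPKM against 12.4 and 13.0 FPKM (adjusted p = 0.0028, limma). *Chrna3*, *Chrna5*, *Chrnb2* and *Chrnb4* were called under all 3 other scalings, *Chrna6* under quantile normalization and *Chrna2* under none. *Chrna3*, *Chrna5* and *Chrnb4* form a known gene cluster.

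Cell adhesion, matrix and synapse organization was the largest group with a shared function, at 17 genes and a median ratio of 2.23. *Lrfn2*, a leucine-rich repeat adhesion protein of synapses that binds PSD-95, had 27.2 and 24.0 FPKM in *rd7* and 4.78 and 4.69 FPKM in wild-type, a ratio of 5.02. *Megf9*, a membrane protein with EGF-like repeats, had 37.0 and 38.9 FPKM against 7.67 and 7.82 FPKM (ratio 4.73). *Epha10*, an ephrin receptor that lacks kinase activity, had 8.05 and 4.73 FPKM against 1.24 and 1.09 FPKM (ratio 3.80). *Epha10* differed from the first 2 in the distance between its *rd7* pools. *Thsd7a*, a thrombospondin-domain protein, had 13.6 and 13.8 FPKM against 5.05 and 5.37 FPKM (ratio 2.53). The other 13 had ratios from 2.03 to 2.52. They were the receptor phosphatases *Ptprg* and *Ptprt*, the matrix genes *Tnr* (tenascin R) and *Lamc1* (laminin gamma 1), the nyctalopin gene *Nyx* of bipolar cells, *Olfm1*, *Pcdh15* of the photoreceptor and hair cell, *Prtg*, the clustered protocadherins *Pcdhb16* and *Pcdhac2*, *Nrn1l*, *Il1rap* and *Lrrtm4*. *Olfm1*, a secreted olfactomedin, was the most abundant of the group at 219 and 212 FPKM against 89.6 and 93.1 FPKM.

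Of 21 other synaptic leucine-rich repeat, neurexin and neuroligin genes 14 were called higher and none lower, against 9, 8 and 5 higher and 2, 1 and 1 lower under the other scalings. *Lrrtm2*, a relative of *Lrrtm4*, was at 6.38 and 5.80 FPKM against 2.59 and 2.97 FPKM (log2 difference 1.11, standard error 0.10, adjusted p = 0.0013, limma). *Nlgn1*, a postsynaptic neuroligin, was at 7.89 and 6.91 FPKM against 3.40 and 3.87 FPKM (log2 difference 1.01, standard error 0.10, adjusted p = 0.0017, limma), and *Slitrk6* and *Nlgn3* were also called under all 3 other scalings. No classical cadherin was among the doubled genes, yet 11 of 15 were called higher and none lower, and 7, 7 and 6 higher and 1, 1 and 0 lower under the other scalings. *Cdh12* had the largest difference, 3.41 and 3.04 FPKM against 0.918 and 0.921 FPKM (log2 difference 1.70, standard error 0.13, adjusted p = 0.00085, limma), and both its wild-type values were under the minimum of 1 FPKM. *Cdh8* (1.14), *Cdh6* (0.95) and *Cdh11* (0.82, all log2 differences) followed.

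Intracellular and secreted signalling held 13 genes with a median ratio of 2.15. *Ece1*, which cleaves big endothelin to the active peptide, was the only one with a ratio of at least 3, with 34.7 and 31.0 FPKM in *rd7* and 9.57 and 9.58 FPKM in wild-type (ratio 3.24). *Prickle2*, a planar cell polarity protein, had 20.1 and 21.3 FPKM against 6.11 and 7.003 FPKM (ratio 2.87). *Pde8a*, a cAMP-specific phosphodiesterase, had 18.3 and 21.7 FPKM against 6.48 and 6.93 FPKM (ratio 2.64). Several of the other genes belong to cAMP signalling as well. *Pde3a* is a phosphodiesterase (2.099), *Sphkap* (2.15) and *Akap11* (2.06) anchor protein kinase A, and *Pde4dip* (2.42) binds a phosphodiesterase at the centrosome and Golgi. *Pde8a* and *Pde4dip* met the rule under each of the other scalings, while *Pde3a*, *Sphkap* and *Akap11* met it under none of them. *Traf3ip2*, an adaptor of interleukin 17 signalling, *Ptpn13*, a phosphatase, *Iqsec3*, an exchange factor for ARF GTPases, *Prkaa2*, a catalytic subunit of AMP kinase, and *Uhmk1*, a kinase, completed the group with *Cntf*. Of 14 other phosphodiesterases outside phototransduction 9 were called higher and none lower, against 7, 7 and 3 higher and 1 lower in each under the other scalings, and *Pde8b*, the relative of *Pde8a*, was at 37.3 and 33.4 FPKM against 20.6 and 21.6 FPKM (log2 difference 0.74, standard error 0.069, adjusted p = 0.0014, limma).

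*Cntf*, the ciliary neurotrophic factor, shares its reads with an overlapping locus. *Cntf* had 3.99 and 5.19 FPKM in *rd7* and 1.09 and 1.56 FPKM in wild-type (ratio 2.56). The locus *Zfp91-Cntf*, a readthrough transcript that covers *Cntf*, had 2.69 and 2.49 FPKM in wild-type and 5.31e-05 and 9.45e-05 FPKM in *rd7*. The sum of both loci was 3.99 and 5.19 FPKM in *rd7* and 3.79 and 4.05 FPKM in wild-type, so with both loci together the genotypes overlapped and no doubling was left.

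Cytoskeleton and cilium held 10 genes with a median ratio of 2.24. *Arhgdib*, a gene best known from blood cells, had 20.9 and 29.1 FPKM in *rd7* and 4.44 and 4.12 FPKM in wild-type (ratio 4.69). *Rsph9*, a radial spoke protein of motile cilia, had 16.1 and 11.4 FPKM against 3.25 and 3.43 FPKM (ratio 3.34). *Fmn1*, a formin, had 16.4 and 13.99 FPKM against 4.46 and 4.95 FPKM (ratio 2.83). The pools of *rd7* lay apart in opposite directions in the first 2, with replicate 2 higher for *Arhgdib* and replicate 1 higher for *Rsph9*. *Nav3*, a microtubule-binding navigator, was near the wild-type minimum, with 2.48 and 2.62 FPKM against 1.05 and 1.08 FPKM (ratio 2.30). *Frmd3*, *Epb4.1l1* and *Nhs* link or remodel the actin cortex, *Flna* crosslinks actin, *Nebl* and *Tmod3* bind thin filaments, and these 6 had ratios from 2.04 to 2.27.

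Membrane traffic, nuclear import, translation and ubiquitin gave 9 genes with a median ratio of 2.15. *Ipo4*, an importin of histones and ribosomal proteins, had 70.2 and 73.1 FPKM in *rd7* and 15.3 and 14.9 FPKM in wild-type (ratio 4.57). *Svip*, an inhibitor of the degradation of proteins from the endoplasmic reticulum, had 59.4 and 51.5 FPKM against 11.7 and 12.5 FPKM (ratio 4.13). *Ap1s3*, a small subunit of the AP-1 clathrin adaptor, had 59.2 and 42.5 FPKM against 13.5 and 14.9 FPKM (ratio 2.86). *Zdhhc14*, a palmitoyltransferase, had 10.01 and 11.2 FPKM against 3.68 and 3.85 FPKM (ratio 2.60). *Ipo4* was the steadiest of these 4 between pools and *Ap1s3* the least steady. The translation factor *Eif1a*, the ARF-like GTPase *Arl5b*, and *Mib1*, *Siah3* and *Nhlrc1* (malin, known from Lafora disease) of ubiquitin ligase families had ratios from 2.03 to 2.15.

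The 6 glycan-modifying enzymes had the lowest median ratio, 2.13, and none reached 3. *St6gal2*, a sialyltransferase, had 3.88 and 3.90 FPKM in *rd7* and 1.51 and 1.33 FPKM in wild-type (ratio 2.57). *St6galnac5*, another sialyltransferase, had 6.43 and 6.65 FPKM against 2.70 and 2.61 FPKM (ratio 2.38). *Hs3st5*, a heparan sulfate sulfotransferase, had 7.41 and 6.91 FPKM against 3.16 and 2.99 FPKM (ratio 2.19). All 3 were under 10 FPKM in every library, with the pools of a genotype close together. *Pgap1*, which trims glycosylphosphatidylinositol anchors, had 3.98 and 3.92 FPKM against 1.82 and 1.89 FPKM, and *Mfng*, which extends the sugars of Notch, and *Hs2st1* were at 2.04 and 2.002. After median-ratio scaling 2 of the 6 still met the rule, and 1 did after the GC and length correction.

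The 24 genes given no function reached over the whole range of ratios, and 8 had a ratio of at least 3. After *Tmem26* and *Tmem164* came *Fam185a*, with 14.7 and 15.2 FPKM in *rd7* and 2.84 and 2.74 FPKM in wild-type (ratio 5.17). *F830016B08Rik* had 14.1 and 8.68 FPKM against 1.72 and 1.71 FPKM (ratio 5.04). *Gm4759* was the most abundant, at 221 and 165 FPKM against 41.8 and 44.5 FPKM (ratio 3.71). *A630089N07Rik* (4.25), *1110002B05Rik* (3.87) and *C130039O16Rik* (3.14) were the others past 3. The rest were *Fam135b*, *Tuft1*, *Tmem20*, *A930038C07Rik*, *Gm7616*, *Gm15348*, *Xkr4*, *Xkr7*, the imprinted gene *Mest*, *Klhl4*, *Gm6300*, *2810055F11Rik*, *Tcta*, *Nhlrc2*, *Gm11961* and *BC030476*, with ratios from 2.02 to 2.73.

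The pools of *rd7* lay further apart in the doubled genes than in expressed genes overall. The 2 *rd7* values differed by more than 1.25 times in 18.5% of the 135 genes and in 8.88% of the 12388 expressed genes, and the 2 wild-type values did so in 1.48% and 2.37%. Among the 34 genes with a ratio of at least 3 the share was 38.2% in *rd7* and 0.0% in wild-type, against 11.9% and 1.98% among the 101 others. The rule uses the smaller *rd7* and the larger wild-type value, so these spreads are not independent of how the genes were chosen. Replicate 1 was the higher in 18 genes, led by *Epha10* (1.70 times replicate 2), *F830016B08Rik* (1.62), *Lipi* (1.53), *A630089N07Rik* (1.43), *Rsph9* (1.41) and *Ap1s3* (1.39). The other 12 were *Smpdl3a*, *Tet1*, *Gm4759*, *Lhx4*, *2810055F11Rik*, *Tmod3*, *Zfp277*, *Otop3*, *Prdm1*, *Zfp488*, *1110002B05Rik* and *Hr*. Replicate 2 was the higher in 7, namely *Pygm*, *Ccne2*, *Arhgdib*, *Gm15348*, *Clca3*, *Prtg* and *Cntf*. In none of these 25 genes did the pools of *rd7* reach down to wild-type, which the rule itself required. *Nr2e3*, with 2493 FPKM in replicate 1 and 1589 FPKM in replicate 2, lay on the side of the 18. That side also held more of the 12388 expressed genes. Past 1.25 times, *rd7* replicate 1 was the higher in 645 of them and replicate 2 in 455.

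**Figure D4:**
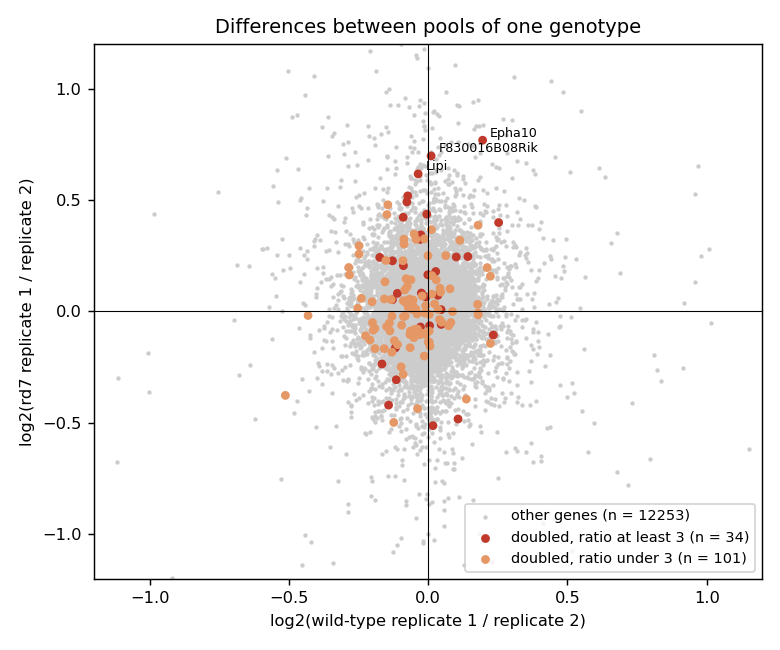
Log2 ratio of replicate 1 to replicate 2 in *rd7* (vertical) against the same in wild-type (horizontal), for genes with a ratio of at least 3 (red), under 3 (orange) and other expressed genes (grey, 53 of which lie outside the axes or have a value of 0 in an *rd7* library). The doubled genes spread further along the vertical than along the horizontal axis, with *Epha10*, *F830016B08Rik* and *Lipi* highest.

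Markers of other cells were read beside these genes because whole retinas can differ in what they hold. Counts of called markers are to be read against the shares of all genes tested, 37.6% higher and 8.8% lower. Under the other scalings these shares were 19.7%, 18.6% and 12.4% higher and 19.6%, 19.0% and 15.0% lower. The summed FPKM of 17 reactive Müller cell genes was 152 and 247 in *rd7* against 111 and 115 in wild-type, so that it was highest in *rd7* replicate 2. Of these genes 7 of 14 tested were called higher and none lower (6, 5 and 4 higher and none lower under the other scalings). Of 11 Müller cell markers other than *Car2* 6 were called higher and none lower (5 higher in each and 1, 0 and 0 lower under the other scalings). The whole list summed to 2939 and 2988 FPKM against 2396 and 2463 FPKM. That sum includes *Car2*, chosen by the rule, at 453 and 455 FPKM in *rd7* against 202 and 204 FPKM in wild-type. Of 11 bipolar cell markers other than *Nyx* 9 were called higher and none lower (7 and none under each of the 3 other scalings), with *Grik1* at 27.9 and 29.1 FPKM against 14.2 and 15.95 FPKM. Of 19 amacrine, horizontal and ganglion cell markers 9 were called higher and 1 lower, which became 2, 3 and 3 higher and 3, 2 and 0 lower under the other scalings. *Prox1* stood out among these, at 25.1 and 24.7 FPKM against 11.9 and 12.6 FPKM.

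Markers of tissue around the retina, of blood and of microglia were read as well, against the same shares of all genes tested. The summed pigment epithelium markers were 99.4 and 86.1 FPKM in *rd7* against 59.8 and 43.6 FPKM in wild-type, and 6 of 11 tested were called higher and none lower (4, 3 and 3 higher and 0, 0 and 1 lower under the other scalings), with *Mlana* at 0 in a library and *Rpe65*, which was called by the first of the other scalings and not by the remaining ones, at 2.28 and 2.44 FPKM against 1.402 and 0.784 FPKM. Blood markers summed to 76.8 and 161 FPKM against 271 and 317 FPKM, with 3 of 5 called lower and none higher (3, 3 and 1 lower under the other scalings, the last of 3 tested). Lens markers summed to 19.8 and 44.4 FPKM against 35.3 and 75.9 FPKM, with none of 6 called by limma under any of the scalings. Of 8 microglia and macrophage markers 3 were called higher and none lower (2, 2 and 4 higher under the other scalings). These 3 were 37.5% of the markers tested, close to the 37.6% of all genes tested. The markers summed to 30.3 and 38.8 FPKM against 26.0 and 26.3 FPKM. No doubled gene was on the pigment epithelium, lens, blood or microglia lists. The part of any of these differences in the doubled genes was not tested.

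Genes were next compared by where they lie. On mm9 the share of expressed genes that were doubled ran from 0.296% on chromosome 11 (3 of 1014) to 1.86% on chromosome 6 (11 of 592) among chromosomes with doubled genes. Another gene that met the rule, the 13 left out included, lay within 500 kb of 14 of the 135 genes (10.4%, against 9.28% of 12240 other expressed genes) and these shares were close. The nearest such pairs were a few kilobases apart. *Gm7616* starts 1214 bp from *Nr2e3* on the opposite strand of chromosome 9, with 32.8 and 26.8 FPKM in *rd7* and 9.29 and 11.04 FPKM in wild-type (ratio 2.42). *2810055F11Rik* lies 2436 bp from *Gpr135* on chromosome 12, on the same strand. *Smpdl3a* lies 6093 bp from *Fabp7* on chromosome 10, and *Fabp7*, a fatty acid binding protein of glia, had 146 and 81.6 FPKM in *rd7* against 2.45 and 2.14 FPKM in wild-type. In both *Smpdl3a*, at 8.53 and 6.30 FPKM against 1.74 and 1.75 FPKM, and *Fabp7*, *rd7* replicate 1 was the higher. *Arhgdib* lies 12805 bp from the cone phosphodiesterase gene *Pde6h* on chromosome 6, and *Kdm1b* 28688 bp from *Nhlrc1* on chromosome 13, both on opposite strands. The remaining pairs, *Adrb1* and *Nhlrc2*, *Tmem20* and *Pde6c*, *Pcdhb16* and *Pcdhac2*, and *Clca3* and *Hs2st1*, were more than 100 kb apart.

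Reads could also be shared where loci overlap. Of the 135 loci 12 overlap another listed locus, and for 5 the overlapping locus was itself at a mean FPKM of at least 1. Besides *Cntf* these were *Ccne2* with *Ints8*, *Mest* with *Copg2*, *1110002B05Rik* with *Mir1892*, and *Pcdhac2* with other genes of the alpha protocadherin cluster. *Ints8*, on the opposite strand of *Ccne2*, was at 10.0 and 9.96 FPKM against 7.65 and 8.03 FPKM, and *Copg2*, opposite *Mest*, at 26.3 and 27.2 FPKM against 17.8 and 19.8 FPKM. Whether counting used the strand is not given in the sources used here, so the values of these 5 genes are uncertain.

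The doubled genes were lower in wild-type and spread over longer loci than expressed genes overall. The median wild-type mean was 4.61 FPKM in the 135 genes and 10.0 FPKM in the 12388, and in *rd7* it was 14.3 and 11.2 FPKM. The median locus spanned 52874 bp against 21757 bp, with exons of 4290 bp against 3758 bp and an exonic GC content of 47.8% against 50.1%. The wild-type level was alike on both sides of a ratio of 3, with a median of 4.60 FPKM in the 34 genes above and 4.61 FPKM in the 101 below. Span, exon length and GC content were not. For the 101 genes the median span was 70160 bp, the exonic length 4916 bp and the GC content 47.4%, while for the 34 they were 24782 bp, 3286 bp and 49.1%. A correction of each library for GC content and exonic length left 68 of the 132 genes with an annotation above the threshold. It also removed the shift between libraries, as the median log2 difference of all genes tested went from 0.15 to -0.02. Losses under it therefore cannot be assigned to GC content and length alone. All 33 annotated genes with a ratio of at least 3 were among the 68, and 35 of the 99 annotated genes below 3. *Tmem26* went from 15.5 to 12.6, *Gulo* from 12.6 to 12.2 and *Kdm1b* from 9.06 to 7.59, while *Acsl1* went from 2.003 to 1.59 and *Il1rap* from 2.05 to 1.51.

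**Figure D5:**
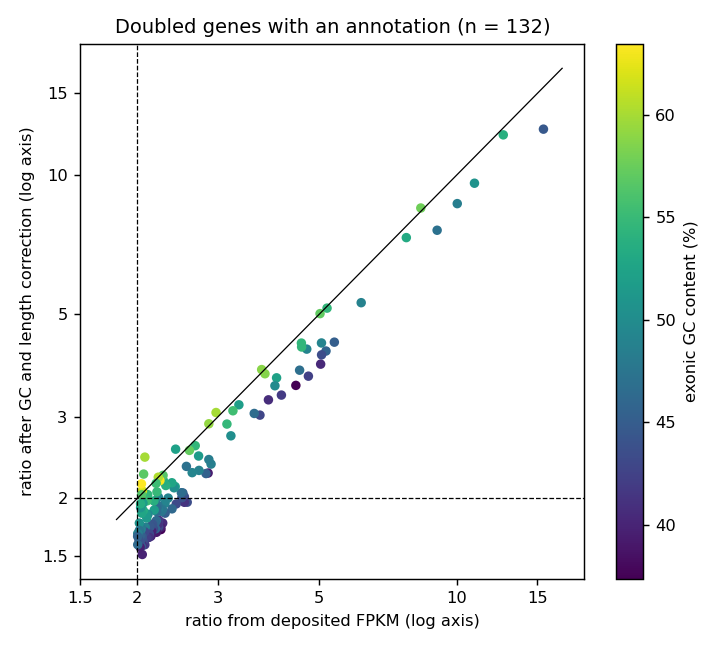
Ratio corrected for exonic GC content and length against the ratio from the deposited FPKM, both axes logarithmic, for the 132 doubled genes with an annotation, coloured by exonic GC content in percent, with equal values as a solid line and the threshold of 2 as dashed lines. Most points fall below the solid line, among them genes of higher GC content such as *Ipo4* (54.6%, from 4.57 to 4.25). All genes past 3 on the horizontal axis stay above 2 on the vertical axis.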

How the data were processed

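RNA was sequenced from 2 *rd7* and 2 wild-type libraries of pooled retinas, and no sample was left out. The authors mapped single reads of 50 bp from 1 lane to mm9 with TopHat 1.4.1 and deposited an FPKM per locus and library from Cufflinks 1.3.0, with a status for each. FPKM corrects for transcript length and total reads and not for the composition of a library. The annotation behind the loci is not given in the sources used here. A second deposited table, with the authors' comparison (pooled FPKM, fold changes, p-values and q-values), was not used.

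The genes, the lists of relatives and the groups by function were chosen with earlier results of these data known. Genes were ranked by the smaller *rd7* over the larger wild-type FPKM. Every one is named, and values by library are given for the 10 highest, the 4 highest of each group and the genes next to the threshold, and for some others by level or position. *Chrna5*, *Cdh12* and other relatives were named from the lists after limma calls. No test was made on the 135 genes. For other genes log2(FPKM + 0.1) was compared with limma 3.58.1 under R 4.3.3 (eBayes, variance trend, no block, two-sided, Benjamini-Hochberg adjustment, FDR of 5%), over genes averaging 1 FPKM or more whose status was OK in all 4 libraries. The step was tested on simulated data. These differences understate changes of genes with low FPKM.

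The deposited values hold no read counts. Depth was estimated from the median of small FPKM times kilobase values within a window of 0.02 to 0.036. These medians, 0.0281 to 0.0287, lay near the middle of the window, so the estimate may largely reflect the window chosen. It also runs low because annotated exons exceed the effective length. Loci, with the first base counted as 1, were matched by symbol and position to GENCODE annotation of the same build, which gave 96.9% of the 12388 expressed genes a length and GC content. The GC and length correction subtracted, in each library, natural splines with 4 degrees of freedom fitted to deviations from gene means. Replicate numbers were not used to pair the libraries, since the labels give no shared litter or day to a number. The deviations of replicate 1 in *rd7* and wild-type correlated at -0.0265 across genes, which alone cannot settle whether same-numbered libraries share anything. Other alternatives were quantile normalization, other minimums, folds and pseudocounts, a ratio of means, a replicate block, and leaving out each library.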

Additional observations from a re-analysis of the deposited data

Results flagged for a closer look

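*Mir1892*, a microRNA locus of mm9 chromosome 12 (55746922 to 55746999) within the locus of the doubled gene *1110002B05Rik*, was flagged because it met the fold and the wild-type minimum while the authors' software marked its estimate as low data in all 4 libraries, which kept it out of every comparison. It was listed at 44.7 and 30.9 FPKM in *rd7* and at 11.5 and 10.6 FPKM in wild-type, a ratio of 2.68. Reads of its host gene fall on the same bases, and their part in this value was not tested. It was the only locus outside the OK status that met the rule.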

How the results depend on the processing

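The number of doubled genes, 135, moved with the setting. It was 73 under median-ratio scaling, 75 under quantile normalization, 72 after correcting GC content and length, 82 with a pseudocount of 1, 61 with a wild-type minimum of 5 FPKM, 335 with no minimum, 610 at a fold of 1.5, 34 at a fold of 3 and 221 for a ratio of means. It was 153 to 204 when 1 library was left out (204 without *rd7* replicate 2), and 179 for a minimum on the mean of all libraries, an alternative chosen after seeing the data. In all, 57 genes stayed under median-ratio scaling, quantile normalization, the GC and length correction, the replicate block, the ratio of means and each library left out. Of these settings only the 3 scalings removed any gene. A gene that met the rule must also meet it for the ratio of means and with any library left out. The log2 differences of 47 genes (the 4 highest of each group, which include the 10 highest, and *Abhd2*, *Acsl1* and *Hs2st1*) kept their sign under every alternative run, and the lowest was 0.72, with the GC and length correction. Because the rule chose these genes for a doubling of the same values, a change of sign was hardly possible. The kept sign is therefore no support for the differences.

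The limma calls moved in the same way. Of all genes tested, 4755 were higher and 1114 lower, which became 2492 and 2479 under median-ratio scaling, 2357 and 2401 under quantile normalization, 1523 and 1838 after correcting GC content and length, 2249 and 455 with no filter on low FPKM, and 2582 and 446 at an FDR of 1%. Leaving out 1 library gave 1293 to 5484 higher and 224 to 1601 lower, with 1293 and 224 without wild-type replicate 1 and 2124 and 338 without wild-type replicate 2. Of the 232 related genes, 111 were higher and 7 lower, which became 69 and 18, 65 and 17, 51 and 13, 50 and 1, and 62 and 1 under the same 5 settings, and 72 higher with a mean FPKM of at least 5. Leaving out 1 library gave 38 to 134 higher (38 and 60 without wild-type replicates 1 and 2) and 2 to 14 lower (2 without either wild-type replicate, 12 and 14 without *rd7* replicates 1 and 2). The cause of these moves was not tested.

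With the replicate number as a block, 151 genes were doubled, 4508 genes tested were called higher and 1091 lower, and 109 related genes were higher and 14 lower. The labels give no shared litter or day to a number, so the pairing has no basis beyond the number itself. With 2 pools a genotype and FPKM only, small differences were not detectable in genes near 1 FPKM.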
